A study of Mus musculus with 4 samples.

Results

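Convergent cleavage sites are places where RNA copied from opposite strands of the genome ends close together, with the tails of both RNAs pointing towards each other. Of 13805 clusters of 3′ ends on the plus strand of the mouse autosomes, 852 (6.17%, interval 5.78% to 6.59%) had the most used position, or top, of their nearest minus-strand cluster within 500 nt of their own top. These 852 pairs were chosen by reads and position alone: the 3'READS libraries were summed by position, chained on each strand while gaps were at most 24 nt, and kept as a cluster at 10 or more reads. The 852 plus-strand clusters had 704 distinct minus-strand partners, because 123 partners (17.5%) were the nearest cluster of more than 1 plus-strand cluster, so the pairs held 1556 distinct ends. In 698 pairs (81.9%) each end was also the nearest opposite end of the other. In 349 pairs the ends overlapped, which means that the plus top lay to the right of the minus top and that RNAs ending there share complementary sequence. In the other 503 pairs a gap separated the ends.

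Most poly(A) tails are added after a nascent RNA is cut at a poly(A) site. The cleavage and polyadenylation machinery recognises a hexamer such as AAUAAA upstream of the cut, through the specificity factor CPSF, and U- or GU-rich sequence downstream of it, which is bound by the cleavage stimulation factor CstF through its 64 kDa subunit CstF64. Where genes on opposite strands lie tail to tail, both sets of signals occupy the same DNA, and transcripts that run past each other's end carry complementary 3′ parts.

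The ends were read from a commercial mix of RNA from 11 mouse cell lines, by 3'READS, which captures RNA fragments that carry a poly(A) tail and places their last base. There was 1 library with the CU5T45 oligo, which has 5 U and 45 T and from which fragments are released by RNase H, and 1 library with oligo(dT)10-25 beads, whose T stretches are shorter. CstF64 binding came from CLIP-seq in proliferating cells of the mouse myoblast line C2C12: RNA was crosslinked to protein by UV light at 254 nm, trimmed, immunoprecipitated with an antibody to CstF64 and sequenced, in 2 replicates. The labels describe no genetic change in any of these cells, do not name the lines of the mix, and describe no CLIP control, so CLIP values are set beside flanks, the opposite strand or other clusters.

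The CU5T45 library held 6738355 reads, the oligo(dT)10-25 library 3482826 reads, and the CLIP replicates 1101047 and 1352122 distinct alignments. The CLIP replicates differed by less than their sampling noise at the ends of pairs (chi-square 0.206 per degree of freedom over 237 ends), so they were counted as 1 sample, with each replicate's value given. With 1 library for each oligo there is no replicate, no p-value was computed, and the 95% intervals given cover counting error only; reads copied by PCR without molecular identifiers are not independent molecules. RNA from a mix of lines cannot show whether both ends of a pair are made in the same cells, and fewer cells that use an end cannot be told apart from less RNA per cell. The pairs are named by their mm9 positions, since gene names and sequences of that build were not used here; whether the ends belong to annotated genes was not analysed here.

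Overlaps were shorter than gaps. The 852 pairs split into 349 with overlapping ends (41.0%, interval 37.6% to 44.3%) and 503 with a gap, and in no pair did the tops fall on the same position. The median overlap was 63 nt and the median gap 188 nt. Only 124 overlaps (35.5%) were longer than 100 nt, against 340 gaps (67.6%). The tops were within 30 nt of each other in 171 pairs (20.1%), and the clusters themselves overlapped in 142 pairs (16.7%).

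The balance between overlaps and gaps turned with distance. Over every pairing of a plus-strand with a minus-strand cluster, nearest or not, overlapping ends made up 56.9% (interval 51.9% to 61.7%) of pairings with tops up to 100 nt apart, 236 against 179 with a gap. From 101 to 500 nt they made up 28.3% (24.8% to 32.1%), from 501 to 1000 nt 24.1%, and from 1001 to 5000 nt 20.0% (18.6% to 21.4%). The number of pairings per 100 nt of distance was highest at the shortest distances on both sides. There were 310 overlapping pairings and 263 with a gap per 100 nt from 1 to 30 nt, 204 and 143 from 31 to 100 nt, 44.0 and 111 from 101 to 500 nt, and 16.2 and 64.9 from 1001 to 5000 nt.

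At the finest scale the overlaps and gaps of the 852 pairs had different shapes. Within 10 nt there were 113 pairs (13.3%), of which 51 overlapped and 62 had a gap. From 11 to 60 nt there were 117 overlaps and 38 gaps, and the least filled bin of 10 nt among gaps up to 100 nt was 31 to 40 nt, with 3 pairs. Overlaps filled that same distance with 29 pairs. From 71 to 100 nt the order turned, with 34 overlaps and 49 gaps. The closest pairs clustered on a few distances: 45 pairs had a gap of 1 to 3 nt and 20 an overlap of 1 to 3 nt. The convention by which positions were counted is not stated and could shift them by 1 nt. The side of at least the 45 pairs with tops at most 2 nt apart is therefore uncertain. Without those 45, overlapping ends were 41.4% of pairs.

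**Figure D1:**
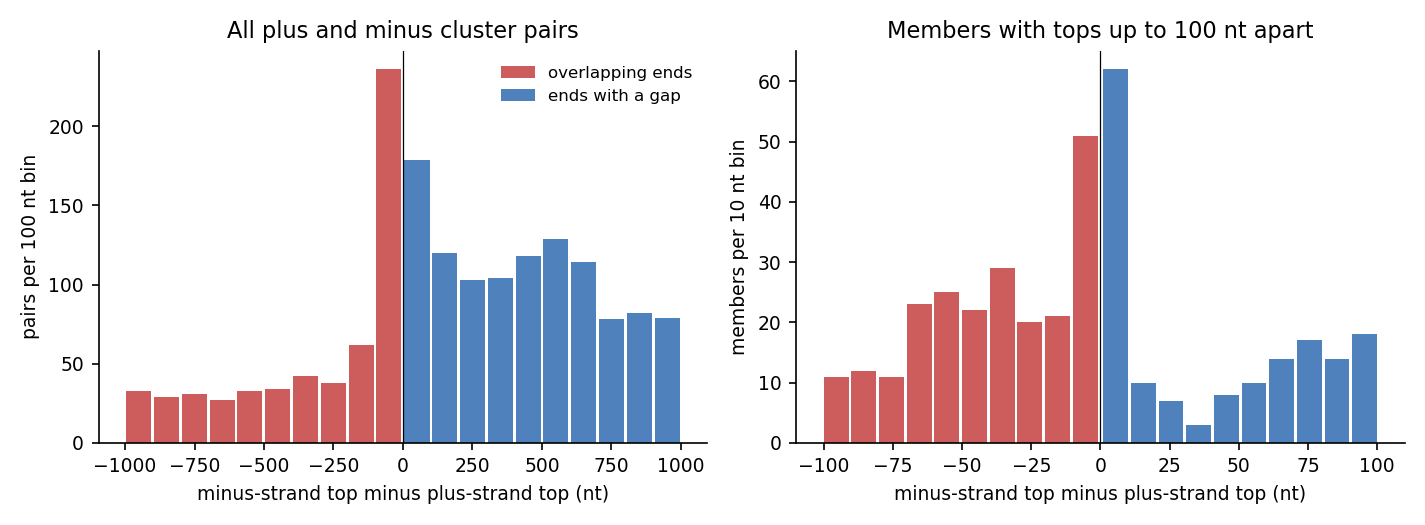
Distance between the tops on opposite strands, as the minus-strand top minus the plus-strand top in nt (overlapping ends left of 0 in red, ends with a gap right of 0 in blue). Left, all plus and minus cluster pairings per 100 nt bin, with overlaps outnumbering gaps up to 100 nt only; right, the paired clusters per 10 nt bin up to 100 nt, with 117 overlaps against 38 gaps from 11 to 60 nt.

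The limit of 500 nt fell on no break in the data. The pairs just inside it had gaps of 498, 498 and 497 nt, at plus tops 4113964 on chromosome 19 (34 plus and 377 minus reads), 4085844 on chromosome 7 (213 and 19) and 45652246 on chromosome 19 (89 and 35). Just outside it were gaps of 501, 503 and 504 nt, at plus tops 144566754 on chromosome 7 (32 and 401 reads), 151356245 on chromosome 4 (14 and 323) and 46910344 on chromosome 17 (154 and 62). Reads on either side of the limit spanned similar values.

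The strands of a pair were usually unequal. The median plus end had 62 reads (quartiles 22 and 221) and the median minus end 53.5 (22 and 182), with both libraries pooled. The weaker strand held a median of 20.4% of a pair's reads (quartiles 8.25% and 36.1%), 23.2% in overlapping pairs and 18.9% in pairs with a gap. The strands were within 2-fold of each other in 250 pairs (29.3%, interval 26.3% to 32.5%) and at least 10-fold apart in 225 (26.4%, 23.5% to 29.5%). The plus strand was the stronger in 442 pairs, the minus strand in 397, and 13 pairs were tied. All ends had 10 or more reads by choice, so the weaker strand's share has a floor that depends on the stronger strand's reads.

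The balance of the strands showed little relation to distance. The weaker strand's median share was 19.6% with tops 1 to 30 nt apart, 20.9% at 31 to 100 nt, 22.2% at 101 to 250 nt and 18.8% at 251 to 500 nt. Among the 113 pairs within 10 nt it was 18.4%. Across the 852 pairs, which share libraries and a read minimum, Spearman's rho between plus and minus reads was 0.080, and across the pairs within 30 nt it was -0.037. At 31 to 100 nt the weaker strand had a median of 24.8% over 133 overlapping pairs and 16.3% over 84 pairs with a gap. Its median reads were alike, at 28 and 30, whereas the stronger strand had a median of 100 reads in those overlapping pairs and 304 in those with a gap.

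**Figure D2:**
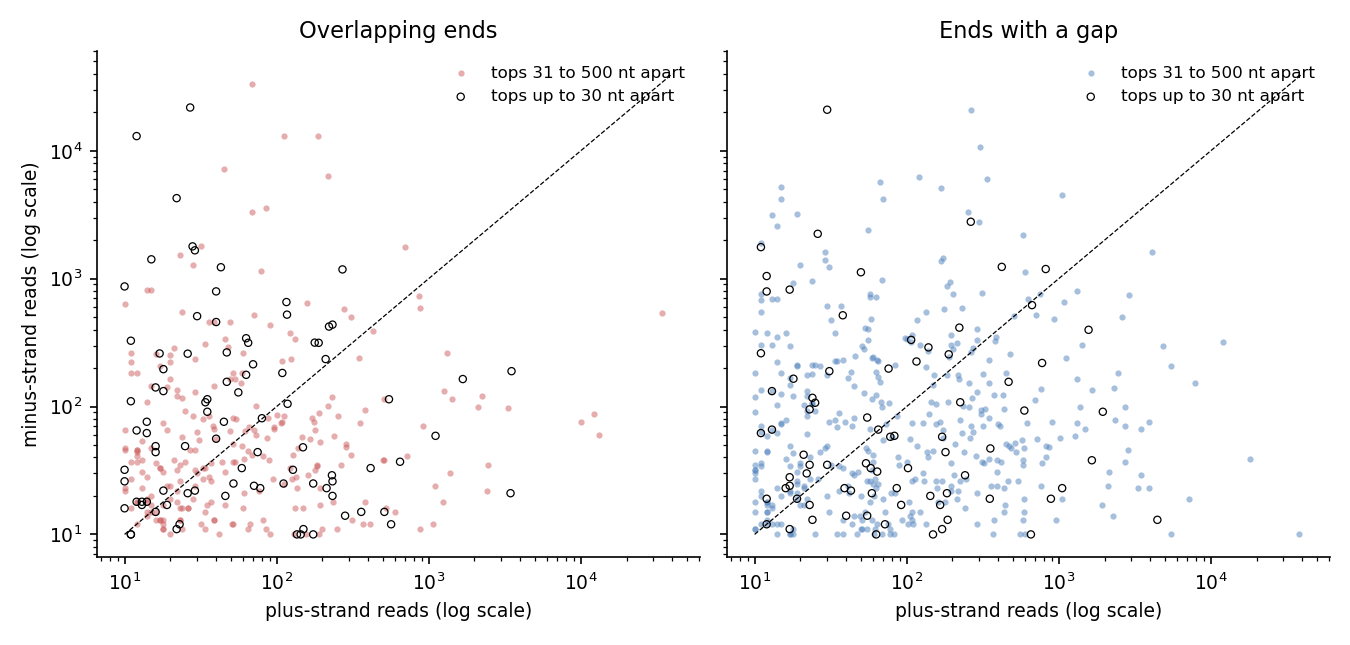
Reads on the plus strand (x) and on the minus strand (y) of each pair, both libraries pooled, on log axes, for overlapping ends and ends with a gap; the dashed line marks equal reads. Points spread widely on both sides of the line, with Spearman's rho of 0.080 over all 852 pairs.

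In 129 pairs, 36 overlapping and 93 with a gap, even the weaker strand reached 100 reads. The overlapping pair with most reads on its weaker strand lay on chromosome 13, with its plus top at 74497115 and its minus top 90 nt to the left at 74497025. Its plus end had 575 CU5T45 reads and 285 oligo(dT)10-25 reads, and its minus end 500 and 233, so the weaker strand held 46.0% of the reads and both libraries gave nearly the same balance. On chromosome 6, the plus end at 72309751 had 548 and 147 reads and the minus end at 72309707 had 1147 and 617, an overlap of 44 nt in which the minus strand was ahead in both libraries. A pair on chromosome 19 (plus top 6985517, overlap 51 nt) had 635 and 237 reads on plus against 371 and 219 on minus. Another on chromosome 13 (plus top 59873300, overlap 64 nt) was close to even in both libraries, with 302 and 126 reads on plus and 308 and 82 on minus.

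In the other 4 named overlapping pairs the strands were between 1.62-fold and 63.8-fold apart. At 4040023 on chromosome 16 the plus end had 25851 CU5T45 and 8231 oligo(dT)10-25 reads, and 44 nt to its left the minus end had 444 and 90. On chromosome 5 (plus top 77778348, overlap 79 nt) the reads were 253 and 55 on plus and 344 and 156 on minus. The longest overlap among these 8 named pairs was 113 nt, at plus top 113658092 on chromosome 13, with 195 and 82 reads on plus and 455 and 121 on minus. The shortest was 3 nt, on chromosome 2 at 164618270, with 223 and 48 reads on plus and 665 and 516 on minus.

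Among the pairs with a gap, the most reads on a weaker strand were on chromosome 9, where the plus end at 107987330 had 3009 CU5T45 and 1117 oligo(dT)10-25 reads and the minus end 414 nt to its right, at 107987744, had 1050 and 553. On chromosome 2 the plus end at 26448201 had 810 and 235 reads and the minus end, 397 nt away, 3508 and 983, spread over several positions. These long gaps contrast with a gap of 7 nt on chromosome 17 at 36029614, where the plus end had 553 and 268 reads and the minus end 261 and 928, so the libraries put opposite strands ahead. A gap of 45 nt on chromosome 8 (plus top 73282502) had 943 and 369 reads on plus and 465 and 330 on minus.

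The other 4 pairs of this kind had gaps between 101 and 494 nt, and the plus strand was ahead in those on chromosomes 18 and 5. On chromosome 16 (18071435, gap 386 nt) plus had 499 and 254 reads and minus 387 and 372, so the plus strand led with CU5T45 and trailed with oligo(dT)10-25. On chromosome 18 (12913654, gap 182 nt) plus had 2061 and 827 and minus 425 and 320. On chromosome 5 (124568204, gap 494 nt) plus had 816 and 271 and minus 433 and 221. On chromosome 7 (134947313, gap 101 nt) the strands were nearly even, with 448 and 181 reads on plus and 504 and 186 on minus.

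**Figure D3:**
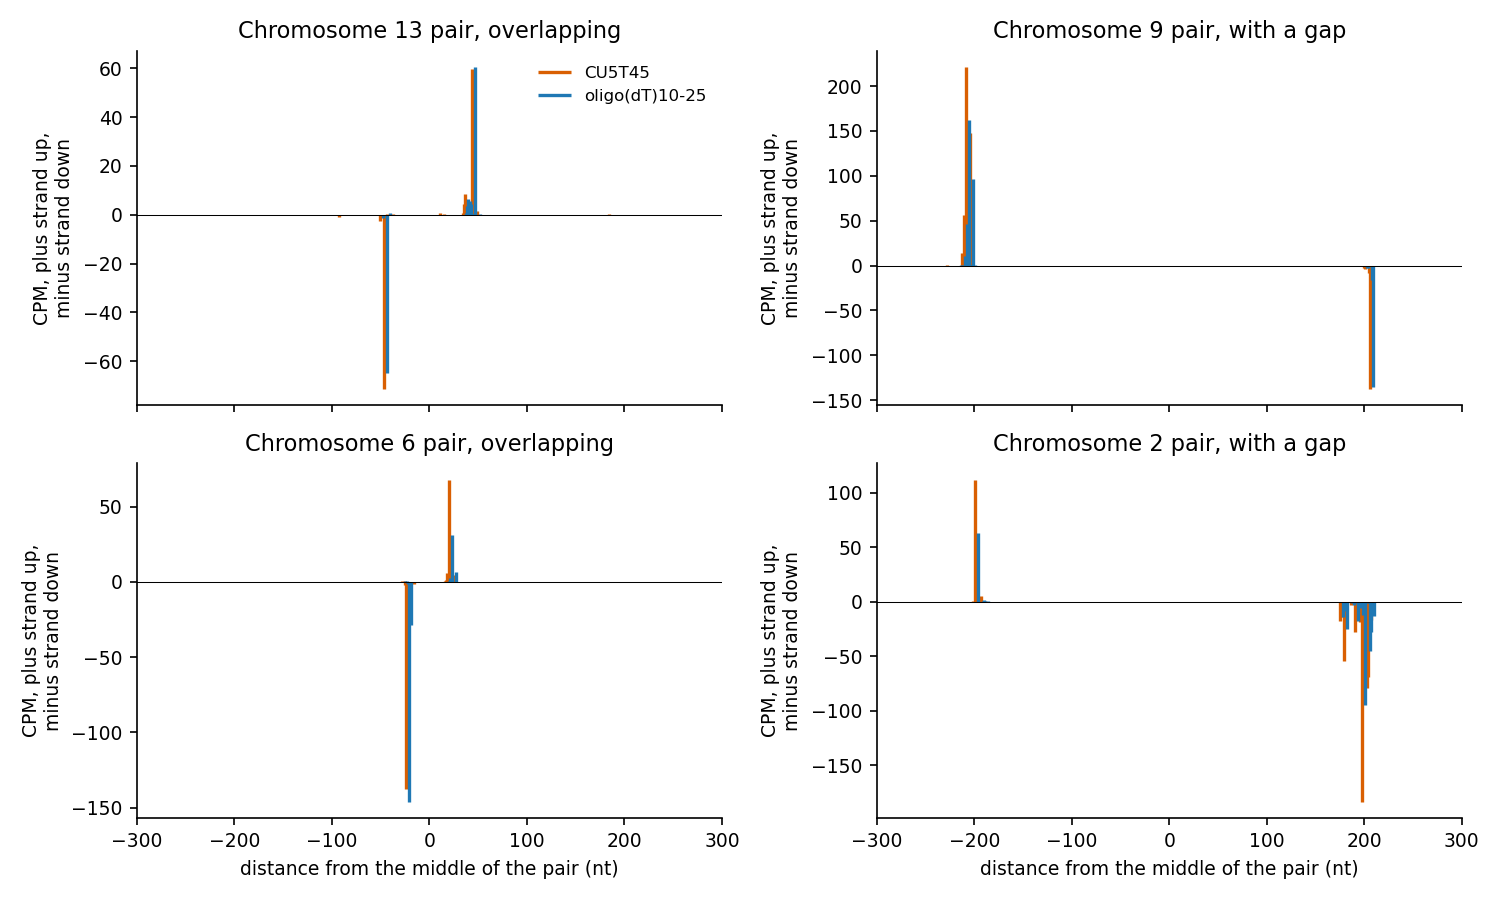
CPM (counts per 1000000 reads of the library) by distance in nt from the middle of 4 pairs, plus strand upwards and minus strand downwards; bars of CU5T45 are drawn 1.5 nt to the left and bars of oligo(dT)10-25 1.5 nt to the right of their position. In the overlapping pairs on chromosomes 13 and 6 the upward bars lie right of the downward ones, by 90 and 44 nt at the tops, and in the pairs with a gap on chromosomes 9 and 2 they lie to the left, by 414 and 397 nt.

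At the other extreme, 29 pairs had under 1% of their reads on the weaker strand. The most uneven was on chromosome 1, with 24981 CU5T45 and 12934 oligo(dT)10-25 reads at 75364290 on plus and 6 and 4 reads 431 nt away on minus. On chromosome 5 the minus end at 31257414 had 9174 and 3850 reads, and the plus end 10 nt to its right 11 and 1. On chromosome 10 the minus end at 128395329 had 14931 and 6861, and the plus end 27 nt to its right 17 and 10. On chromosome 17 a plus end at 34993316 with 24 and 6 reads lay 2 nt from a minus end with 13999 and 6940.

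Few reads on the opposite strand were typical of abundant ends. Of 1408 autosomal ends with 1000 or more reads, 1359 (96.5%, interval 95.4% to 97.4%) had no opposite-strand read at all within 10 nt of the top, and 16 had 10 or more. The opposite reads within 10 nt came to 0.0345% of the reads of these ends. Of the 111 ends with 10000 or more reads, 103 had none, and the opposite reads came to 0.00165%. The pairs with tops within 10 nt, which were chosen for having reads on both strands, are the exceptions to that pattern.

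The choice of strand was much the same in both libraries, which the pooling did not require. With 10 or more reads in each library, the same strand was the stronger in 682 of 809 pairs (84.3%, interval 81.6% to 86.7%). With the tops taken from each library alone, 375 of 380 pairs with enough reads (98.7%) fell on the same side and 297 (78.2%) at exactly the same distance. These tops were sought inside the pooled clusters, which overlapped each other in only 142 of the 852 pairs. Where the clusters did not overlap, the side could not differ between the libraries, so no conclusion is drawn from the agreement in side.

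The ratio of read shares, CU5T45 over oligo(dT)10-25, could be computed at the 1050 of the 1556 ends with 30 or more reads; the other 506 had fewer. An end was called different when the ratio reached 4-fold and its 95% interval excluded 1. By that rule 23 ends of pairs (2.19%, interval 1.39% to 3.27%) were higher with CU5T45, against a background of 1.77% of 16179 autosomal clusters, and 40 (3.81%, 2.74% to 5.15%) were lower, against 4.49%. Both shares were near the background. Intervals lay above 1 at 343 ends (32.7%; background 27.8%) and below 1 at 232 (22.1%; background 23.2%). The median log2 ratio of the ends of pairs was 0.17, and that of all clusters 0.12.

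Ends lower with CU5T45 were a larger share of overlapping ends than of ends with a gap, with intervals that overlapped. Of 408 overlapping ends, 10 were called higher and 23 lower (5.64%, interval 3.61% to 8.34%), with a median log2 ratio of 0.10. Of 642 ends with a gap, 13 were higher and 17 lower (2.65%, 1.55% to 4.21%), with a median of 0.22. The interval of the ratio lay below 1 at 26.0% (21.8% to 30.5%) of overlapping ends and 19.6% (16.6% to 22.9%) of ends with a gap, and 68.1% of overlapping ends and 76.9% of ends with a gap were within 2-fold. Over all 16179 clusters 1.77% were called higher and 4.49% lower, 23.2% had an interval below 1 and 73.5% were within 2-fold. For ends called lower, the interval of overlapping ends held the 4.49% of all clusters, and that of ends with a gap lay below it. The overlapping ends had a median of 107.5 reads and the ends with a gap 154.5, and reads were not matched.

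The ratio at one end said little about the ratio at the other. In 333 pairs in which each end was the other's nearest and both had 30 or more reads, Pearson's r between the log2 ratios of plus and minus ends was 0.079 and Spearman's rho 0.092, over pairs that share both libraries. The ends differed by a median of 0.70 log2 units. Both intervals lay above 1 in 41 pairs, both below 1 in 20, and on opposite sides of 1 in 42.

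**Figure D4:**
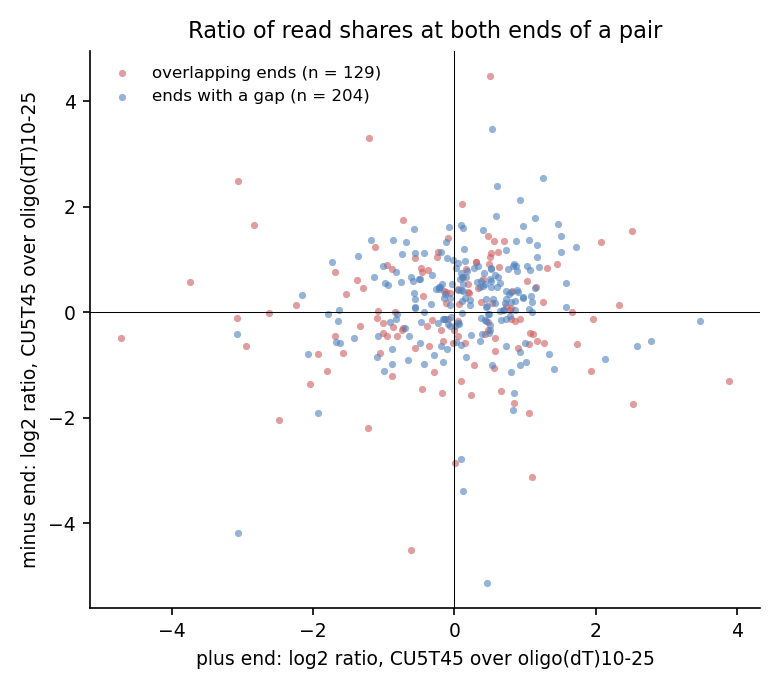
Log2 ratio of read shares, CU5T45 over oligo(dT)10-25, at the plus end (x) and the minus end (y) of 333 pairs with 30 or more reads at each end. The points scatter around 0 on both axes with no visible diagonal (Pearson's r 0.079 over both kinds of pair).

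The 4 pairs whose ends diverged most, with intervals on opposite sides of 1, had their tops between 1 and 122 nt apart. On chromosome 8, at a gap of 1 nt, the plus end at 87228614 had 1200 reads with CU5T45 and 451 with oligo(dT)10-25, a ratio of 1.38, and the minus end had 2 and 36, which is 34.8-fold lower with CU5T45 (interval 8.97 to 299). On chromosome 7 (plus top 133589414, overlap 41 nt) the plus end had 13 and 56 reads, 8.33-fold lower with CU5T45 (4.50 to 16.6), and the minus end 30191 and 2791, 5.59-fold higher (5.38 to 5.81). On chromosome 2 (25077799, overlap 122 nt) the plus end had 86 and 0 reads, 14.8-fold higher when the 0 is set to 3 reads, with a lower limit of 11.8, and the minus end 25 and 32, 2.48-fold lower. On chromosome 1 (187110624, overlap 45 nt) the plus end had 15 and 18 reads, 2.32-fold lower, and the minus end 76 and 4, 9.82-fold higher. The 7 nt pair on chromosome 17 at 36029614, given above, differed at 1 end, with its minus end 6.88-fold lower (5.99 to 7.92) and its plus end at 1.07 (0.920 to 1.24).

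CstF64 CLIP, which had no part in choosing the pairs, was found at about as many of their ends as at comparable ends elsewhere, or slightly more. Of the 1556 ends, 51.8% (interval 49.3% to 54.3%) in replicate 1 and 53.6% in replicate 2 had an alignment on their own strand with its midpoint within 100 nt. The 25926 autosomal clusters with no opposite top within 500 nt had 45.8% and 46.9%. Ends of pairs were more abundant, with a median of 59 reads against 40. At matched reads, the share in replicate 1 was 41.3% against 37.7% at 10 to 29 reads, 48.1% against 45.8% at 30 to 99 reads, 63.6% (59.2% to 67.9%) against 56.5% (55.3% to 57.7%) at 100 to under 1000 reads and 62.7% against 59.9% at 1000 reads or more. Only at 100 to under 1000 reads did the intervals not meet.

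The mean number of alignments went the other way, with 2.35 and 2.86 per end of a pair against 2.79 and 3.31 per other cluster, where single clusters reached 1517 alignments in replicate 1 against a highest value of 63 at the ends of pairs. Overlapping ends and ends with a gap had alignments about equally often, at 52.6% and 54.9% of overlapping ends and 51.3% and 52.7% of ends with a gap.

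CLIP alignments stood over their flanks on both sides of the cleavage position. On the own strand of the ends of pairs, density in the 40 nt upstream of the top was 3.48 times (interval 3.24 to 3.73) and 3.44 times that at 200 to 400 nt, and in the 40 nt downstream 3.21 times (2.99 to 3.45) and 3.14 times. The other clusters had 3.58 and 3.58 upstream and 2.91 (2.87 to 2.96) and 2.84 downstream. The highest bin of 10 nt was 19 to 10 nt upstream in overlapping ends, in ends with a gap and in the other clusters alike. The most covered single end gave 2.99% and 2.69% of the alignments near the ends of pairs.

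The downstream ratio was lower at overlapping ends than at ends with a gap. Downstream density was 2.40 and 2.38 times that of the flanks at overlapping ends and 3.74 (interval 3.42 to 4.08) and 3.62 times at ends with a gap. Upstream density was 3.20 and 3.19 times and 3.66 and 3.61 times. At a matched distance of 31 to 100 nt between tops, the downstream ratio was 2.68 (2.20 to 3.26) and 2.56 at 247 overlapping ends, against 4.41 (3.69 to 5.26) and 4.33 at 156 ends with a gap, while the upstream ratio was 2.48 and 2.54 against 2.49 and 2.60. From 1 to 30 nt the downstream ratio was 1.90 (1.41 to 2.53) and 2.09 for overlapping ends. For ends with a gap it was 4.14 (3.32 to 5.14) and 3.76. A single end gave 25.8% and 23.4% of the alignments near the tops of those ends with a gap, upstream and downstream together. The ratio without that end was not computed. In replicate 1 the intervals met at 101 to 250 nt, with 2.61 (1.95 to 3.45) against 3.96 (3.33 to 4.70). They also met at 251 to 500 nt, with 2.17 (1.49 to 3.10) against 3.03 (2.58 to 3.53). In replicate 2 they met at 251 to 500 nt only. Overlapping ends had fewer reads, with a median of 49 against 68 at ends with a gap; among clusters of 30 or more reads the downstream ratio, as the mean of the replicates, was 2.64 at overlapping ends and 3.78 at ends with a gap. It was lower at overlapping ends under each of the 9 other placements, flanks, replicates and subsets run for this ratio. These settings include each replicate alone and recount the same alignments, so they are no independent support. When the 5′ end of an alignment set its place, the upstream ratio was lower at overlapping ends too, at 2.96 (2.62 to 3.37) against 4.02 (3.71 to 4.39) at ends with a gap.

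**Figure D5:**
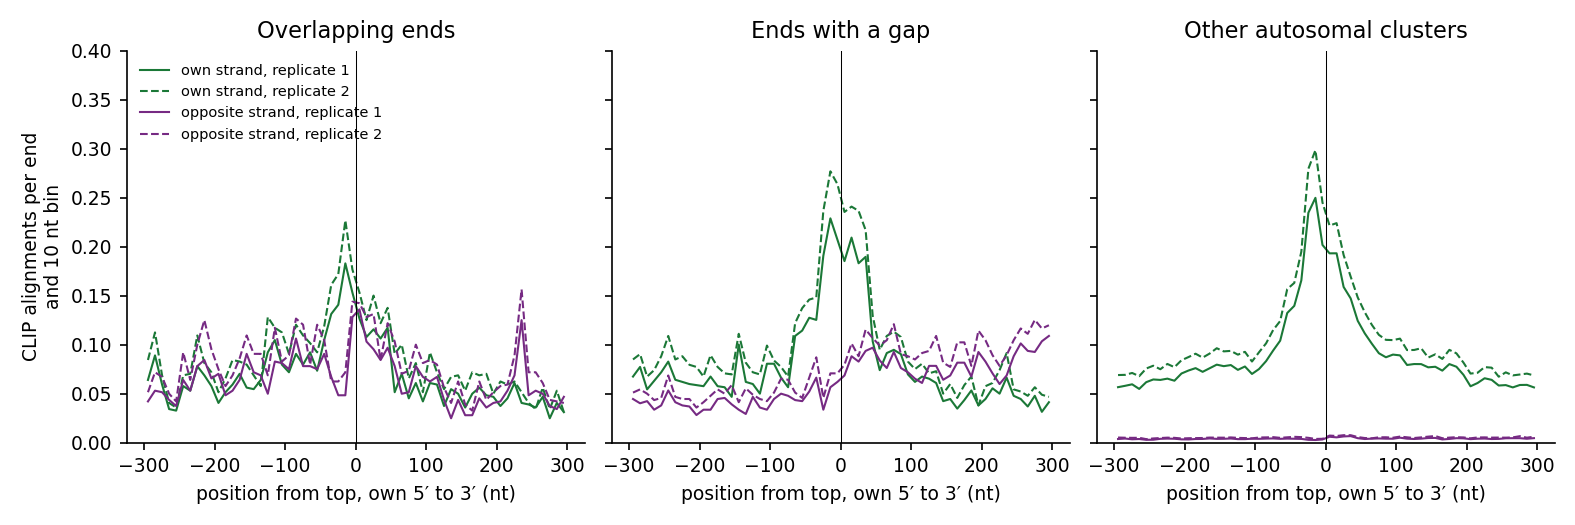
CLIP alignments per end and 10 nt bin by distance in nt from the top, in the 5′ to 3′ direction of each end, on the end's own strand (green) and on the opposite strand (purple), for replicate 1 (solid) and replicate 2 (dashed). The own strand peaks 19 to 10 nt upstream in all 3 panels, it stays high over the first 40 nt downstream at ends with a gap, and the opposite strand is near 0 only at the other clusters.

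On the strand opposite to an end, alignments were common at pairs, where the partner lies, and rare elsewhere. Within 100 nt, 41.8% and 43.6% of ends of pairs had an alignment on the opposite strand, against 4.61% and 5.22% of the other clusters. The share was 51.3% in replicate 1 with tops 1 to 30 nt apart, 50.6% at 31 to 100 nt, 42.7% at 101 to 250 nt and 26.6% at 251 to 500 nt, so it was lower the farther the partner lay. Overlapping ends had 47.4% and 49.0%, and ends with a gap 38.0% and 39.9%. At matched distance the shares in replicate 1 were 55.4% against 46.5% at 1 to 30 nt and 52.2% against 48.1% at 31 to 100 nt. They were 48.5% against 40.3% at 101 to 250 nt, and the order turned at 251 to 500 nt, with 21.5% against 28.1%. The intervals met at each distance, and the reason for the difference was not tested. The other clusters were defined by having no opposite top within 500 nt. At close pairs the opposite-strand window largely covers the partner's own window, so these are mostly the partner's alignments counted again.

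Both strands of a pair could carry CstF64. An alignment was present near at least 1 end in 645 pairs (75.7%) in replicate 1 and 657 (77.1%) in replicate 2, and near both ends in 223 (26.2%, interval 23.2% to 29.3%) and 244 (28.6%). Among the 839 pairs whose strands were not tied in reads, the minus end had one in 48.8% of pairs whose plus end had one and in 47.7% of pairs whose plus end had none in replicate 1, and in 51.7% and 48.8% in replicate 2. An alignment at one end was about as frequent with as without one at the other.

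The strand with more reads had CLIP alignments somewhat more often. In the 839 pairs that were not tied, 55.3% (interval 51.9% to 58.7%) and 57.2% of the stronger ends had an alignment, against 47.0% (43.5% to 50.4%) and 49.0% of the weaker ends. When the strands were at least 10-fold apart it was 65.8% and 66.7% of the stronger ends against 48.0% and 50.2% of the weaker. Weaker ends within 10 nt of the stronger end's top still had alignments on their own strand in 47.3% and 50.9% of pairs, against 52.7% and 53.6% of the stronger.

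Counted by alignments, the strand with more reads was ahead in 343 of 590 pairs (58.1%, interval 54.0% to 62.2%) in replicate 1 and 349 of 612 (57.0%, 53.0% to 61.0%) in replicate 2. It was ahead in 64.3% (56.5% to 71.5%) and 61.2% of pairs at least 10-fold apart, and in 45.5% (37.5% to 53.7%) and 47.4% of those within 2-fold. With tops 1 to 30 nt apart it was ahead in 52.6% and 51.3%. The CLIP cells are 1 line and the reads come from a mix, so the strand that is stronger in C2C12 cells was not measured here.

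In the 4 pairs with the most unequal reads, CLIP lay on the abundant end in 2 and on the weak end in 2. The abundant plus end on chromosome 1 at 75364290 had 20 and 22 alignments within 100 nt in replicates 1 and 2, and its weak partner 0 and 0. The minus end on chromosome 5 with 13024 reads had 7 and 8, and its weak partner at 31257424, with 12 reads, 0 and 0. The minus end with 21792 reads on chromosome 10 had 0 and 0 alignments, while its weak partner at 128395356, with 27 reads, had 3 and 5. On chromosome 17 the end with 20939 reads had 0 and 0, and its partner at 34993316, with 30 reads, had 2 and 2. Of the 8 overlapping pairs with most reads on the weaker strand, that on chromosome 13 at 113658092 had 4 and 8 on plus and 3 and 5 on minus, and that on chromosome 2 at 164618270 had 1 and 2 on plus and 5 and 4 on minus. Among the pairs with a gap, that on chromosome 5 at 124568204 had 13 and 13 on plus and 4 and 4 on minus, and that on chromosome 8 at 73282502 had 9 and 12 on plus and 2 and 3 on minus.

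The 5 pairs with most alignments on the strand that had fewer included both abundant and rare ends. On chromosome 1 a gap of 341 nt (plus top 174126517) separated an end with 8 and 8 alignments from one with 10 and 12. On chromosome 11 an overlap of 15 nt (69470213) joined a plus end of 15 reads with 6 and 8 alignments to a minus end of 1416 reads with 6 and 7. On chromosome 5 (145025270, gap 124 nt) plus had 6 and 9 and minus 10 and 22. On chromosome 11 (69823612, gap 77 nt) plus had 6 and 6 alignments with 288 reads, and minus 7 and 7 with 331. On chromosome 1 (187110308, gap 229 nt) a plus end of 14 reads, all from CU5T45, had 18 and 23 alignments and a minus end of 348 reads 6 and 10.

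The stretch between the tops lies upstream of both ends in overlapping pairs and downstream of both in pairs with a gap, and over all pairs CLIP was similarly dense in either. Overlapping pairs had 8.98 and 10.4 alignments per kb on plus and 6.64 and 8.41 on minus between the tops, and pairs with a gap had 8.68 and 10.4 on plus and 7.32 and 9.12 on minus. At 31 to 100 nt the gaps were denser. They had 27.1 (interval 23.1 to 31.6) and 32.8 per kb on plus and 16.4 (13.3 to 19.9) and 20.4 on minus, against 11.1 (8.86 to 13.7) and 12.3 on plus and 10.2 (8.05 to 12.7) and 13.2 on minus in overlaps of that length. These alignments came from 30 of 84 pairs on each strand, and at most 18.2% of them from a single pair. At 31 to 100 nt the ends with a gap also had more reads, with a median of 96.5 against 51 at overlapping ends. The densities were not matched for reads.

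From 101 to 250 nt, overlaps had 12.3 and 14.1 per kb on plus and gaps 11.8 and 13.7, and on minus overlaps had 9.24 and 12.1 and gaps 7.66 and 10.1. A single pair gave 44.0% and 44.5% of the minus alignments in those overlaps. From 251 to 500 nt, overlaps had 6.69 and 8.03 on plus and gaps 6.33 and 7.67. On minus, overlaps of that length had 4.22 (interval 3.44 to 5.13) and 5.06, and gaps 6.49 (5.93 to 7.08) and 7.94.

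In shape the ends of pairs resembled the other clusters. Their median width was 13 nt against 12 nt, they held a median of 5 positions against 4, and the top held a median of 72.4% of the reads against 72.8%. Another cluster on the same strand had its top within 500 nt at 30.4% (interval 28.1% to 32.8%) of ends of pairs and 30.5% of the other clusters. By reads the picture split. At 10 to 29 reads the share was 37.9% (33.7% to 42.3%) against 29.8%, and at 100 to under 1000 reads 23.9% (20.2% to 28.0%) against 30.5% (29.4% to 31.6%).

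The pairs were spread unevenly over the chromosomes. On chromosome 11, 104 of 1134 plus-strand clusters (9.17%, interval 7.56% to 11.0%) belonged to a pair, and on chromosome 18, 11 of 422 (2.61%, 1.31% to 4.62%). Chromosomes 19, 17 and 4 followed chromosome 11, with 8.43%, 8.02% and 7.97%. Chromosome 1 had 36 pairs among 862 clusters (4.18%, 2.94% to 5.74%). Gene density by chromosome was not analysed here.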

How the data were processed

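The deposited read counts are whole numbers, with no normalization stated per the labels; 3'READS lines are single cleavage positions and CLIP lines distinct alignments. The submitters' processing notes name mm9, Bowtie and Novoalign; their roles, versions and settings are not given in the sources used here. How A-rich internal capture or multiply mapped reads were filtered is not stated. Columns left unused for want of a sample numbered 0, so none was dropped.

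Values were computed in Python 3.11.15 with scipy 1.17.1 for intervals, numpy 2.4.6 and pandas 2.3.3 for tables, and matplotlib 3.10.9 for plots. The 852 pairs were found as described in the text, on 19 autosomes. Ratios of shares have exact conditional binomial 95% intervals, shares Clopper-Pearson intervals and densities per kb exact Poisson intervals; a count of 0 was set to 3 reads. CLIP alignments were placed by midpoint. The procedures were tested on simulated data. The members, lists and rules were chosen with earlier results of these data known. Pairs were named by rule: the 8 overlapping pairs and the 8 with a gap with most reads on the weaker strand, the 4 with the largest ratio between strands, the 5 with most CLIP alignments on the strand with fewer, the 4 with the most opposite oligo ratios, and 3 on either side of the distance limit. The 132 minus-strand clusters within 500 nt of a plus top that were no nearest partner were set aside from both groups. Alternatives changed chaining, read minimum, distance limit, library, and the placement, windows and flanks of CLIP, and each CLIP replicate was left out in turn.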

Additional observations from a re-analysis of the deposited data

Results flagged for a closer look

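Outside the autosomes, chromosome X held 10 pairs by the same rule, among 382 plus-strand clusters (2.62%, interval 1.26% to 4.76%). These clusters entered none of the comparisons above, and they are listed because they were left out. In 5 of the 10 pairs the ends overlapped, and 7 of their 18 ends had a CLIP alignment within 100 nt on their own strand in replicate 1 and 7 in replicate 2. The autosomes ranged from 2.61% on chromosome 18 to 9.17% on chromosome 11.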

How the results depend on the processing

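Of 152 alternative values, 101 stayed within their margin and 51 moved. The margin was 1.5 times for a count and otherwise the 95% interval, which for CLIP spanned the intervals of both replicates. A CLIP value from either replicate alone could not leave that span, so part of the 101 was fixed in advance. A minimum of 5 reads gave 1324 pairs and a weaker-strand share of 17.9%. A minimum of 30 reads gave 426 pairs, 37.1% overlapping, a share of 23.5%, CLIP at 58.3% of ends, an upstream ratio of 3.98, and 11.6 alignments per kb between overlapping and 10.9 between gapped ends. Oligo(dT)10-25 alone gave 456 pairs and a share of 23.7%, and CU5T45 alone 22.6%. Overlaps were 48.8% within 250 nt and 35.3% within 1000 nt. Overlaps outnumbered gaps from 11 to 60 nt at every setting run for that count, with 64 against 21 in oligo(dT)10-25 alone and 86 against 33 in CU5T45 alone. That range was not planned in advance and these settings recount the same reads, so they are no independent support. Ends higher and lower with CU5T45 were 140 and 127 of 1050 at 2-fold and 8 and 14 of 599 at 100 or more reads. They were 0 and 0 when each position was counted once, which left 21 ends to test. Thinning CU5T45 gave 13 higher of 905. The share over all clusters was not computed at these settings, so these counts cannot be set against a background. Placing CLIP by the 5′ end gave 2.56 downstream. By the 3′ end the ratios were 2.73 upstream and 3.60 downstream, so the order of the sides turned, and gaps had 10.3 per kb. Flanks of 100 to 200 nt gave 2.94 and 2.70, the upstream flank alone 3.04 and 2.79, and a window of 50 nt CLIP at 40.4% of ends. The cause of these shifts was not tested beyond what each setting builds in. Leaving out either CLIP replicate gave 51.8% to 53.6% of ends with CLIP, 3.44 to 3.48 upstream, 3.14 to 3.21 downstream, 57.0% to 58.1% of pairs with CLIP on the stronger strand, and 7.81 to 9.40 (overlaps) and 8.00 to 9.75 (gaps) per kb. No paired analysis was possible because each oligo had 1 library and no result came from a test between groups that share replicate numbers. Depth limits weak strands most, since ends under 10 reads were not seen.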
